A study of Saccharomyces cerevisiae with 8 samples.

Results

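The genes described here are 10 heat shock protein and chaperone genes of *Saccharomyces cerevisiae*, chosen by their systematic names out of 7126 genes counted. They are *HSP12*, *HSP26*, *HSP42*, *HSP30*, *HSP31*, *HSP78*, *HSP104*, *SSA3*, *SSA4* and *HSP82*, and all 10 passed the filter on low counts, which left 5778 genes for testing. RNA was sequenced from 8 cultures, 2 for each combination of strain and medium, all grown at 29 °C in YPD with 14 mM KH2PO4 and without any heat treatment in the description. The CRN/PPN1 strain in medium with 5 mM MnSO4 was harvested after 16 h and the same strain in control medium after 12 h. The CRN strain was harvested after 40 h in medium with 5 mM MnSO4 and after 12 h in control medium. Both strains are MATa and carry ade2, his3, ura3 and ppn1delta::CgTRP1, so by the strain descriptions the chromosomal polyphosphatase gene is deleted in every library, although another label calls the genotype of CRN WT. CRN/PPN1 in addition carries the vector pMB1/PPN1 Sc, from which Ppn1 is overproduced (its promoter is not given in the sources used here), and the labels name no vector for CRN, so the presence of a vector cannot be told apart from Ppn1. Growth time differed with strain and medium wherever manganese cultures were compared, so time, medium and strain cannot be told apart there. The replicates came from parallel cultivations, and p-values cover only the spread between these 8 libraries.

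Heat shock proteins keep proteins soluble, refold them or take aggregates apart, and many are made at low levels in growing yeast and at high levels under heat, oxidants, metals or starvation. A pair of activator systems drives most of them in yeast. Hsf1 binds the heat shock element, a run of inverted GAA units, and is the main activator of the folding machines, while Msn2 and Msn4 bind the stress response element AGGGG when protein kinase A activity is low. Hsp12 and the small chaperone Hsp26 are textbook targets of the second system, and Hsp90 and Hsp70 genes of the first.

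The upstream sequences of 5 genes are shown because they hold the binding motifs in different combinations. Each is the stretch from 300 to 101 bases before the start codon, read from the RefSeq genome of build R64, the build used for counting, and written on the strand of the gene from 5′ to 3′. Capitals mark AGGGG or its complement CCCCT (the stress response element) and GAANNTTC or TTCNNGAA (part of a heat shock element).
*HSP12*, chrVI:106956-107155, plus strand: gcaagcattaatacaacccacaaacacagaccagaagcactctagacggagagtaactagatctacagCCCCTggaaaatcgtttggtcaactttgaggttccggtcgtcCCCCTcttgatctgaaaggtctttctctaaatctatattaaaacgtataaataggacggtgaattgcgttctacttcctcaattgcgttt
*HSP42*, chrIV:806321-806520, plus strand: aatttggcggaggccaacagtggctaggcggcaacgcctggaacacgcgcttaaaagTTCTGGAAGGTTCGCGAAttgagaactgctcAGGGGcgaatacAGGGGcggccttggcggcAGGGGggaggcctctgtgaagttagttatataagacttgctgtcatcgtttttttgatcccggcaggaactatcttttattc
*HSP30*, chrIII:157208-157407, minus strand: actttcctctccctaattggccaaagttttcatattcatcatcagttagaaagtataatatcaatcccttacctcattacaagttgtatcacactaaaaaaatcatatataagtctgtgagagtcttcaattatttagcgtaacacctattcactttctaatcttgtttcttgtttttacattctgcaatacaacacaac
*SSA4*, chrV:364289-364488, plus strand: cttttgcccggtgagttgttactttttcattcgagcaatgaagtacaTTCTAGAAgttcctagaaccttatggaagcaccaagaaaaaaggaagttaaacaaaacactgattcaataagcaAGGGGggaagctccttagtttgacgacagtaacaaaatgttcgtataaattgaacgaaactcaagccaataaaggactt
*HSP82*, chrXVI:98726-98925, minus strand: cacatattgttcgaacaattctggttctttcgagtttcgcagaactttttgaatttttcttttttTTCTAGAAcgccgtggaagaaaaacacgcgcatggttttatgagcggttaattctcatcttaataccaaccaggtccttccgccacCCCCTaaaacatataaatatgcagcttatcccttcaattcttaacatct
In the whole window of 300 bases before the start codon, *HSP12* held 2 stress response elements and no heat shock element match. *HSP42* held 3 stress response elements and 3 heat shock matches, which overlap and form a continuous run. *SSA4* held 1 of each, *HSP82* held 1 stress response element and 2 heat shock matches, and *HSP30* held neither. Of the 10 genes, 7 had at least 1 stress response element there, which 22.2% of the windows of all 6020 coding genes had, and *HSP42*, *HSP78* and *HSP104* had 3, which 0.548% had. At least 1 heat shock match was found for 6 of the 10 genes and in 22.4% of all windows. A longer run, in which either motif is extended by NNGAA or NNTTC to a further alternating unit and which therefore contains shorter matches, was present in *HSP42*, *HSP78* and *HSP104* and in 0.864% of all windows. *HSP26*, *HSP30* and *SSA3* had no match to either motif in this window, which says only that these letters are not there. A match is a description of the sequence and not a binding site.

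All 10 genes lie in a single coding exon and overlap no other gene in the RefSeq annotation. Because reads mapping to several places were not counted, stretches shared with other genes lose reads. Of the 36-base stretches of *HSP82*, 12.12% (254 of 2095) also occur in *HSC82*, its near-identical copy, and none of those of the other 9 genes occurs elsewhere in the genome.

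The libraries held from 2309776 to 3579469 gene counts. The gene *PPN1* had from 7027 to 25525 counts in the 4 CRN/PPN1 libraries, against 3 to 39 in the 4 CRN libraries. Short genes took different parts of the counts in the 4 groups. Genes with a coding length up to 648 bp, the shortest quintile, took 33.6% and 34.6% of the counts in CRN/PPN1 in manganese, against 65.87% and 64.01% in control medium, and 16.42% and 18.73% in CRN in manganese, against 77.67% and 71.34% in control medium. What part this has in the results was tested only by the alternative that removes a length trend. *HSP12* (330 bp) and *HSP26* (645 bp) belong to this quintile, and the coding lengths of the other 8 run from 714 to 2727 bp. TMM scaling, which centres the bulk of the genes, gave factors from 0.508 to 1.632. Scaling to the library total in its place moved the median over all genes in manganese against control to a log2 fold change of 0.68 in CRN/PPN1 and 1.57 in CRN, against 0.015 and 0.089 with TMM.

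Without any scaling between libraries, the 10 genes took 0.544% and 0.659% of all gene counts in CRN/PPN1 in manganese, against 0.332% and 0.438% in CRN/PPN1 in control medium. In CRN they took 0.875% and 0.961% in manganese, against 0.032% and 0.047% in control medium. The genes behind the total differed between the groups. *HSP12* alone made 71.93% and 71.1% of the counts of the 10 genes in CRN/PPN1 in control medium, compared with 21.14% and 17.39% in CRN in that medium. In manganese its part was 23.15% and 25.77% in CRN/PPN1, against 8.08% and 9.53% in CRN. *HSP104* was the leading gene of the 10 by counts in every CRN library.

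**Figure D1:**
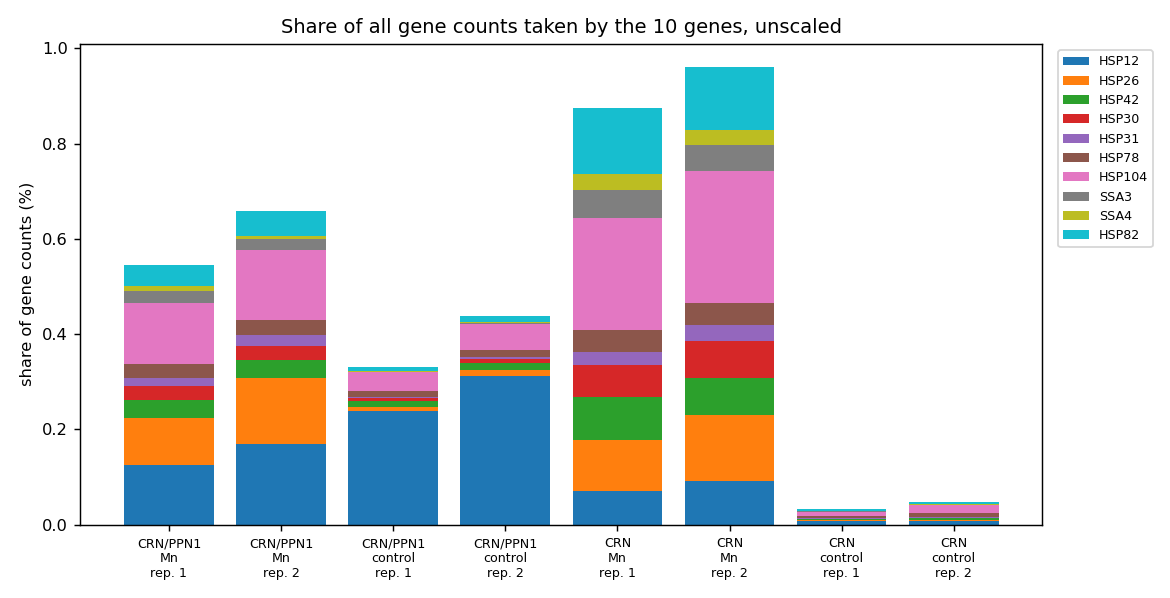
Bars give the share (%) of all gene counts taken by each of the 10 genes in each of the 8 libraries, stacked and without scaling between libraries. The CRN control libraries lie at 0.032% and 0.047%, and the CRN/PPN1 control libraries, at 0.332% and 0.438%, consist mostly of *HSP12*.

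To ask how each strain's heat shock genes differed in manganese medium, manganese cultures were compared with control cultures of the same strain. A call needed an edgeR adjusted p no larger than 0.05 together with a change of 1 or more on the log2 scale in either direction. In CRN/PPN1, 6 of the 10 were up-regulated (*HSP26*, *HSP30*, *HSP31*, *SSA3*, *SSA4* and *HSP82*), where 10.1% of all genes were, and *HSP12* was down-regulated, where 15.1% of all genes were. The median of the 10 genes was 1.35 there, against 0.015 over all genes. In CRN, all 10 genes were up-regulated, by log2 fold changes from 1.43 for *HSP78* to 4.56 for *HSP30*, and their median was 3.68. Over all 5778 genes the median was 0.089, and 24.7% were called up. The libraries of the media did not overlap, with manganese higher, for 9 of the genes in CRN/PPN1, as for 34.8% of all genes, and for all 10 in CRN, as for 44.3%. *HSP12* did not overlap in CRN/PPN1 with manganese lower, as 35.2% of all genes did not.

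The difference between the strains in this comparison of media, which also holds the unequal growth times, was tested as an interaction. It was negative for each of the 10 genes, with a median of -2.11 on the log2 scale, against -0.023 over all genes. It passed both thresholds for 8 of them, the exceptions being *HSP31* and *HSP78*, where 11.6% of all genes passed with a negative sign. The interaction was most negative for *HSP12* (-3.51), *HSP30* (-3.28) and *HSP42* (-2.81).

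**Figure D2:**
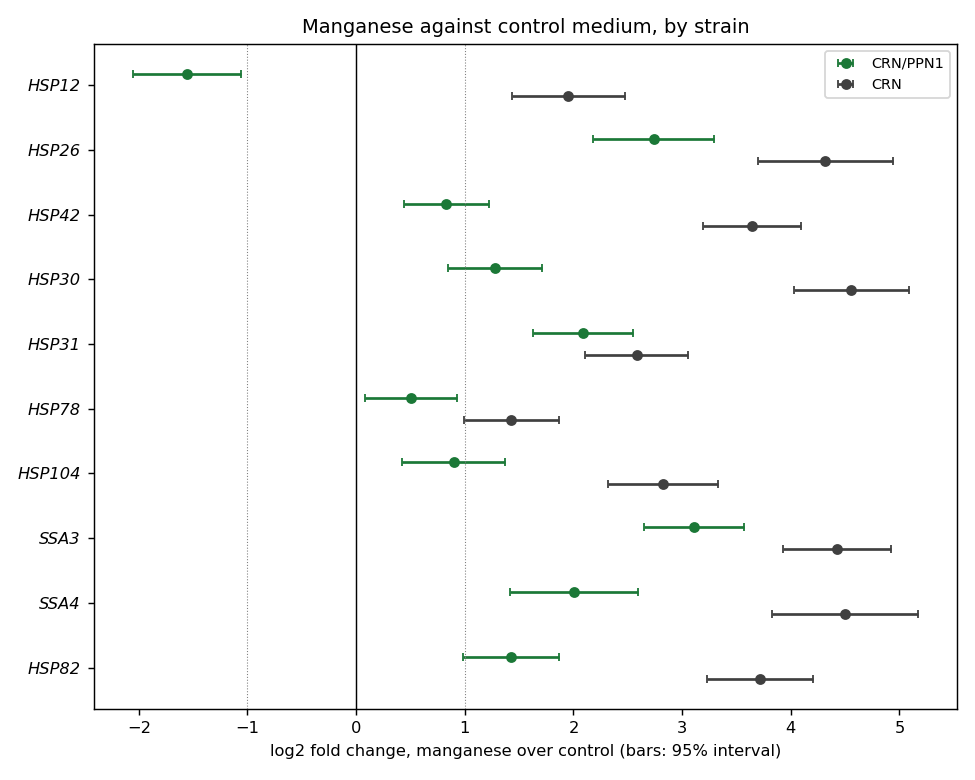
Points give the log2 fold change of manganese over control medium for each gene, CRN/PPN1 above CRN, with 95% intervals from the edgeR fit (n = 2 libraries per group), and dotted lines mark the limit of 1 in either direction. The points of CRN lie to the right of those of CRN/PPN1 for each gene, and *HSP12* in CRN/PPN1 lies below 0.

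To ask how Ppn1 overproduction went with these genes, CRN/PPN1 was compared with CRN in each medium. In control medium, where both strains grew for 12 h, 6 of the 10 genes were higher in CRN/PPN1 (*HSP12*, *HSP26*, *HSP42*, *HSP30*, *HSP104* and *HSP82*), where 4.45% of all genes were called up. The median log2 fold change of the 10 genes was 1.21, against -0.007 over all genes. For all 10 genes both CRN/PPN1 libraries lay above both CRN libraries, as for 28.2% of all genes. In manganese medium, *HSP30*, *SSA4* and *HSP82* were lower in CRN/PPN1, where 7.37% of all genes were called down, and *HSP12* was higher, where 10.4% were called up. Without overlap of the libraries, *HSP12* was higher in CRN/PPN1, as 31.7% of all genes were, and 8 of the 10 genes were lower, as 33.1% were. There the median of the 10 genes was -0.70, against -0.008 over all genes. The comparisons share libraries, since each group enters 2 of them.

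**Figure D3:**
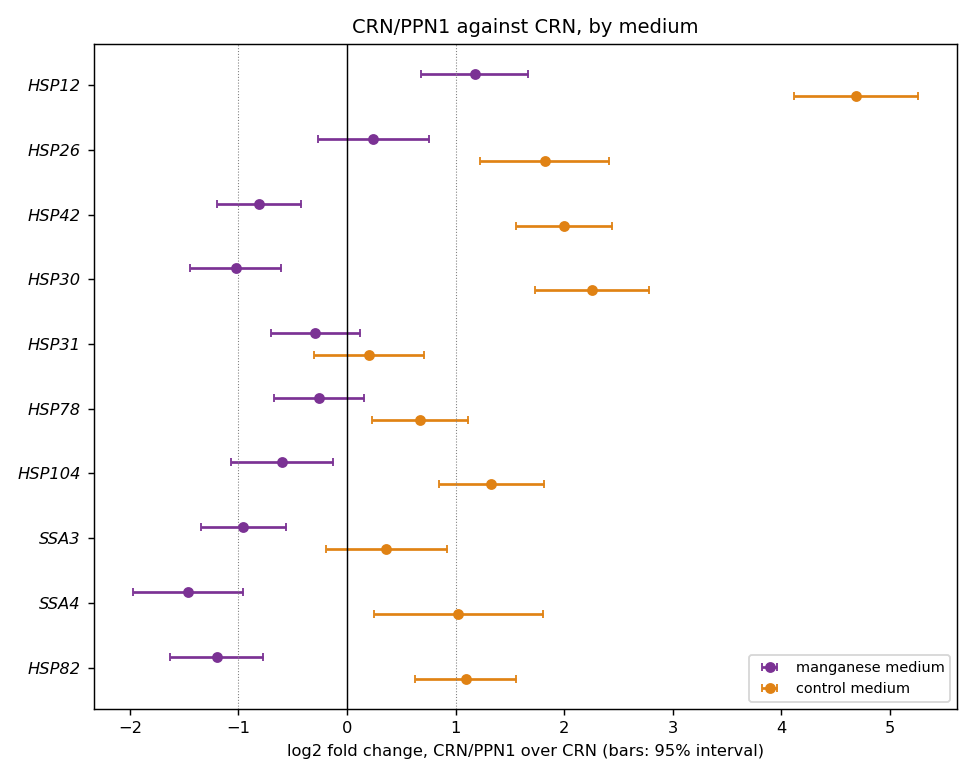
Points give the log2 fold change of CRN/PPN1 over CRN for each gene, manganese medium above control medium, with 95% intervals from the edgeR fit (n = 2 libraries per group), and dotted lines mark the limit of 1. In control medium every point lies above 0, and in manganese medium 8 of the 10 points lie below 0.

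*HSP12* (YFL014W, chromosome VI, 107256 to 107585) encodes a small, largely unfolded protein that binds and stabilizes membranes under stress. It had 973 and 1289 normalized CPM, the TMM-scaled measure of read counts, in CRN/PPN1 in manganese, against 2994 and 3672 in CRN/PPN1 in control medium. In CRN it had 440 and 563 in manganese, against 134 and 125 in control medium. The groups do not overlap in any of these comparisons, and CRN/PPN1 in control medium held the highest values, unlike for the other 9 genes. In control medium *HSP12* was 25.7-fold higher in CRN/PPN1 than in CRN (log2 fold change 4.69, SE 0.27, edgeR adjusted p = 5.36e-08), and in manganese 2.26-fold higher (1.17, SE 0.23, edgeR adjusted p = 0.00131). In manganese against control medium *HSP12* fell in CRN/PPN1 by 1.56 on the log2 scale (SE 0.23, edgeR adjusted p = 9e-05) and rose by 1.95 in CRN (SE 0.24, edgeR adjusted p = 4.46e-06). *HSP12* is the shortest of the 10 genes, and its values depended on how the length class was treated. With the trend of the counts on coding length removed from each library, the change in CRN/PPN1 was -0.088 and no longer called, that in CRN was 4.90, and the difference between the strains in manganese was 0.20. Scaled to the library total, these values were -0.90, 3.45 and 0.86, the first and the last under the fold limit, and without replicate 2 of CRN/PPN1 in manganese the strain difference there was 0.97. The difference in control medium stayed between 4.53 and 5.20 in all alternatives.

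*HSP26* (YBR072W, chromosome II, 382030 to 382674) encodes a small heat shock protein, an oligomer that holds unfolding proteins for later refolding. It had 753 and 1049 normalized CPM in CRN/PPN1 in manganese, against 108 and 162 in control medium. CRN had 671 and 852 in manganese, against 44.0 and 32.6 in control medium. Each strain's media are well apart, and in manganese the strains overlap. In manganese *HSP26* rose by 2.74 in CRN/PPN1 (SE 0.26, edgeR adjusted p = 2.44e-06) and by 4.32 in CRN (SE 0.29, edgeR adjusted p = 6.38e-09). It was 3.53-fold higher in CRN/PPN1 than in CRN in control medium (1.82, SE 0.28, edgeR adjusted p = 0.000573). In manganese the strain difference was 0.24 (95% interval -0.27 to 0.75, edgeR adjusted p = 0.474). Among the 1111 genes of the shortest quintile, to which it belongs, calls in manganese were up for 2.88% and down for 54.2% in CRN/PPN1, and up for 7.92% and down for 70.5% in CRN.

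*HSP42* (YDR171W, chromosome IV, 806621 to 807748) encodes the other cytosolic small heat shock protein, which gathers misfolded proteins into deposits. It had 303 and 287 normalized CPM in CRN/PPN1 in manganese, against 159 and 173 in control medium. In CRN the levels were 556 and 479 in manganese, against 39.0 and 43.8 in control medium. All 4 groups are apart, with CRN in manganese highest and CRN in control medium lowest. In manganese the value of *HSP42* in CRN/PPN1 was 0.83, under the fold limit (SE 0.19, edgeR adjusted p = 0.00228), and in CRN it rose by 3.64 (SE 0.21, edgeR adjusted p = 2.28e-09). In control medium it was 3.99-fold higher in CRN/PPN1 than in CRN (2.00, SE 0.21, edgeR adjusted p = 2.49e-05). Its interaction of -2.81 ran from -3.63 to -2.71 in the alternatives.

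*HSP30* (YCR021C, chromosome III, 156109 to 157107) encodes a plasma membrane protein that restrains the proton pump Pma1 during stress. It had 213 and 222 normalized CPM in CRN/PPN1 in manganese, against 77.5 and 102 in control medium. In CRN, 413 and 473 were measured in manganese, against 16.1 and 21.4 in control medium. No groups overlap. The rise in manganese was 2.42-fold in CRN/PPN1 (1.28, SE 0.20, edgeR adjusted p = 0.000159) and 23.5-fold in CRN (4.56, SE 0.25, edgeR adjusted p = 1.42e-09). In control medium *HSP30* was 4.77-fold higher in CRN/PPN1 than in CRN (2.25, SE 0.25, edgeR adjusted p = 3.72e-05). In manganese it was lower in CRN/PPN1 (log2 fold change -1.03, SE 0.20, edgeR adjusted p = 0.00104), close to the limit of 1: the value was -0.90 without replicate 2 of CRN in manganese, -0.97 without replicate 1 of CRN/PPN1 in manganese and -0.99 with DESeq2.

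*HSP31* (YDR533C, chromosome IV, 1501447 to 1502160) encodes a protein of the DJ-1 family that removes methylglyoxal and also acts as a chaperone. It had 139 and 179 normalized CPM in CRN/PPN1 in manganese, against 34.3 and 40.5 in control medium. CRN showed 182 and 207 in manganese, against 32.8 and 32.0 in control medium. Both strains were thus high in manganese and low in control medium. The rise was 2.09 in CRN/PPN1 (SE 0.22, edgeR adjusted p = 4.38e-06) and 2.58 in CRN (SE 0.22, edgeR adjusted p = 8.33e-08), with an interaction of -0.49 (95% interval -1.15 to 0.16, edgeR adjusted p = 0.24). The strain difference was 0.20 in control medium (95% interval -0.30 to 0.71) and -0.29 in manganese (-0.70 to 0.12). Of its close relatives *HSP32*, *HSP33* and *SNO4*, none passed the filter. *HSP33* had 7 and 4 counts in CRN in manganese, and the 3 genes were at 0 in the other 6 libraries. Reads mapping to several places were not counted, and stretches shared between these 3 genes were not checked. Their counts therefore do not show whether they were silent.

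*HSP104* (YLL026W, chromosome XII, 88623 to 91349) encodes the cytosolic ATPase that pulls proteins out of aggregates and is needed for survival of severe heat. It had 988 and 1109 normalized CPM in CRN/PPN1 in manganese, against 485 and 640 in control medium. For CRN the values were 1473 and 1704 in manganese, against 193 and 255 in control medium. No groups overlap, and the order of the groups is that of *HSP42*. In CRN/PPN1 the value in manganese was 0.90, under the fold limit (SE 0.22, edgeR adjusted p = 0.00482), and without replicate 2 of CRN/PPN1 in control medium it was 1.11 and called. In CRN, *HSP104* rose 7.09-fold in manganese (2.83, SE 0.24, edgeR adjusted p = 6.05e-08). In control medium the gene was 2.51-fold higher in CRN/PPN1 than in CRN (1.33, SE 0.23, edgeR adjusted p = 0.00123). In manganese the difference was -0.60 (SE 0.22, edgeR adjusted p = 0.0496).

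*HSP78* (YDR258C, chromosome IV, 971808 to 974243) encodes the mitochondrial counterpart of Hsp104. It had 231 and 236 normalized CPM in CRN/PPN1 in manganese, against 151 and 178 in control medium. CRN had 276 and 282 normalized CPM in manganese, against 86.1 and 121 in control medium. The groups do not overlap, but they lie closer together than those of *HSP104*. In CRN/PPN1 the value in manganese was 0.50 (SE 0.20, edgeR adjusted p = 0.0567). In CRN, *HSP78* rose by 1.43 in manganese (SE 0.20, edgeR adjusted p = 1.93e-05), and with the length trend removed this was 0.70, under the fold limit. The interaction was -0.92 (SE 0.28, edgeR adjusted p = 0.0218), and was called without replicate 2 of CRN in control medium (-1.19) or replicate 1 of CRN/PPN1 in control medium (-1.04). In control medium the strain difference was 0.67 (SE 0.21, edgeR adjusted p = 0.0389).

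*SSA3* (YBL075C, chromosome II, 84499 to 86448) encodes a cytosolic Hsp70 that is made under stress and when glucose runs out. It had 188 and 173 normalized CPM in CRN/PPN1 in manganese, against 19.2 and 22.6 in control medium. The values in CRN were 364 and 337 in manganese, against 18.6 and 14.0 in control medium. The media are far apart in both strains, and in control medium the strains are close together. The rise was 8.63-fold in CRN/PPN1 (3.11, SE 0.22, edgeR adjusted p = 6.18e-07) and 21.5-fold in CRN (4.43, SE 0.23, edgeR adjusted p = 1.3e-09). The strain difference was 0.36 in control medium (95% interval -0.20 to 0.92, edgeR adjusted p = 0.402) and -0.96 in manganese (SE 0.18, edgeR adjusted p = 0.00105). The interaction of -1.32 (SE 0.32, edgeR adjusted p = 0.00547) was -0.98 with the length trend removed, under the fold limit.

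*SSA4* (YER103W, chromosome V, 364589 to 366517) encodes the other stress-induced cytosolic Hsp70, which gathers in the nucleus on starvation. It had 78.0 and 63.1 normalized CPM in CRN/PPN1 in manganese, against 15.9 and 19.1 in control medium. In CRN it stood at 204 and 187 in manganese, against 12.4 and 5.06 in control medium. Its CRN control libraries held 20 and 9 counts, the fewest of the 10 genes, and differ from each other more than any other pair. *SSA4* rose 4.03-fold in CRN/PPN1 (2.01, SE 0.28, edgeR adjusted p = 4.53e-05) and 22.6-fold in CRN (4.50, SE 0.32, edgeR adjusted p = 8.94e-09). In manganese it was lower in CRN/PPN1 than in CRN (log2 fold change -1.47, SE 0.24, edgeR adjusted p = 0.000297). In control medium the difference was 1.02 (95% interval 0.25 to 1.80, edgeR adjusted p = 0.0744), and the gene was called up in 6 of 17 alternatives, with 1.78 without replicate 1 of CRN in control medium, but 0.50 and not called without replicate 2. It had 0.63 with counts on either strand, 1.05 without either library of CRN/PPN1 in manganese, 1.02 without the filter, 1.56 scaled to the library total and 1.03 with the replicate block.

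*HSP82* (YPL240C, chromosome XVI, 96496 to 98625) encodes the stress-induced form of Hsp90, which matures kinases and receptors. It had 338 and 396 normalized CPM in CRN/PPN1 in manganese, against 119 and 154 in control medium. Levels in CRN were 867 and 818 in manganese, against 57.6 and 70.2 in control medium. No groups overlap, and CRN in manganese stands far above the rest. The rise was 2.69-fold in CRN/PPN1 (1.43, SE 0.21, edgeR adjusted p = 6.9e-05) and 13.2-fold in CRN (3.72, SE 0.23, edgeR adjusted p = 3.17e-09). In manganese *HSP82* was lower in CRN/PPN1 than in CRN (log2 fold change -1.20, SE 0.20, edgeR adjusted p = 0.000381), and with the length trend removed the value was -0.96, under the fold limit. In control medium it was higher in CRN/PPN1, by 1.09 (SE 0.22, edgeR adjusted p = 0.00343), and lost its call without replicate 1 of CRN in control medium (0.96), without replicate 2 of CRN/PPN1 in control medium (0.89) or with the length trend removed (0.97).

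**Figure D4:**
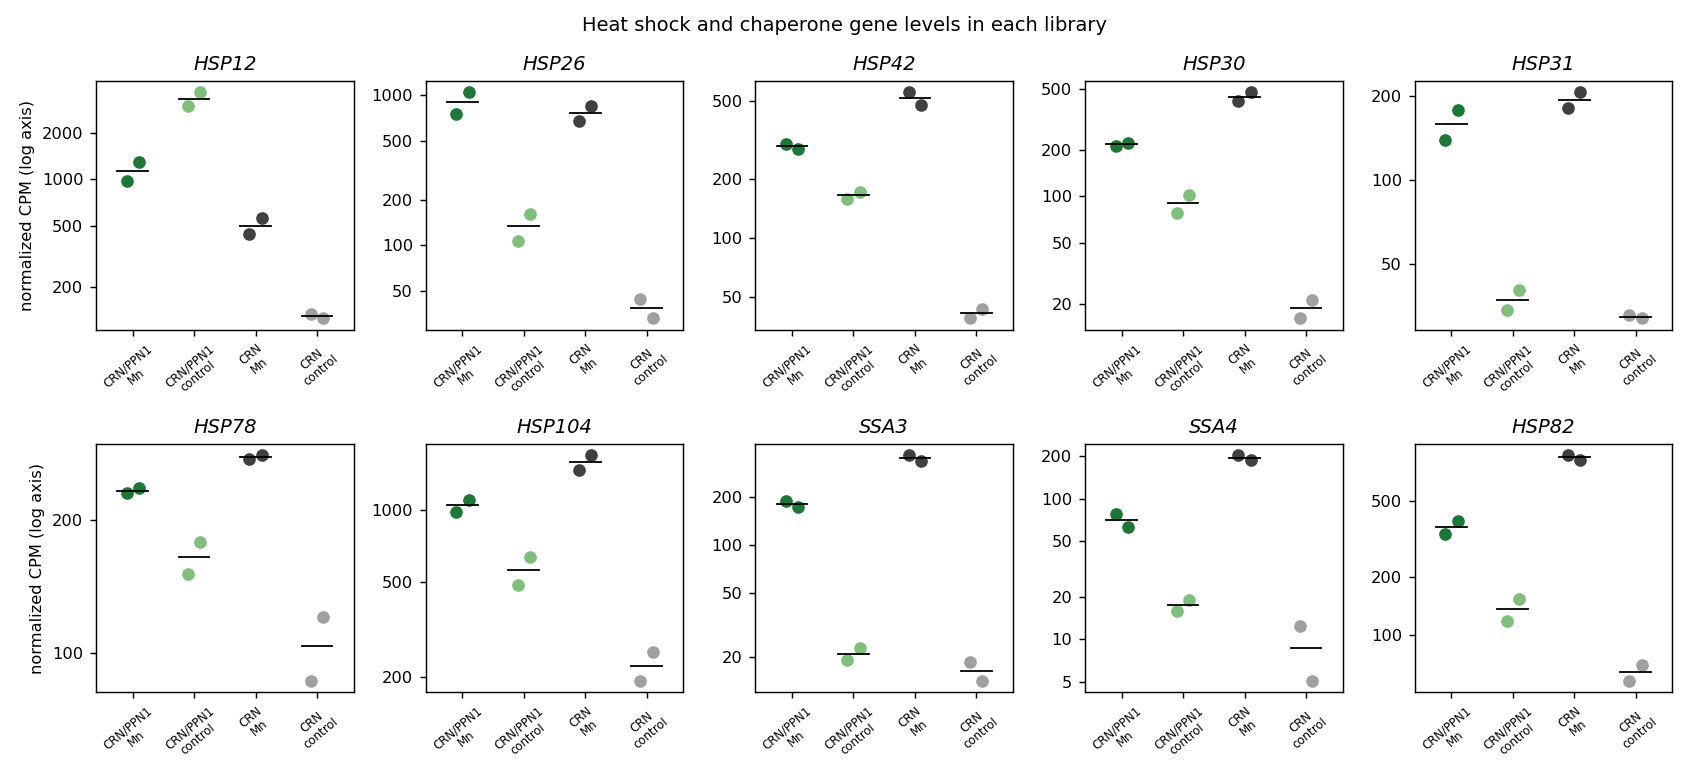
Points give normalized CPM on a log axis, each panel with its own range, in the 2 libraries of each group, with a bar at the group mean. *HSP12* peaks in CRN/PPN1 in control medium at 2994 and 3672, *HSP26* is at like levels in both strains in manganese, and the other 8 genes are highest in CRN in manganese.

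Ordered by group means, 8 of the 10 genes ran from CRN in manganese through CRN/PPN1 in manganese and CRN/PPN1 in control medium to CRN in control medium. *HSP26* had both strains in manganese at the top, which do not differ beyond their spread, and *HSP12* had CRN/PPN1 above CRN in either medium. Compared between genes per kilobase of coding length, *HSP12* was the highest of the 10 in all 4 groups, with means of 3428 normalized CPM per kb in CRN/PPN1 in manganese, 10100 in CRN/PPN1 in control medium, 1519 in CRN in manganese and 393 in CRN in control medium. These levels placed it at the percentiles 98.9, 99, 99.1 and 87.4 of the genes with a known length. No trend on coding length was removed for these levels, and short genes took different parts of the counts in the 4 groups. *SSA4* was the lowest in all 4 groups, with 36.6 per kb in CRN/PPN1 in manganese, 9.09 in CRN/PPN1 in control medium, 101 in CRN in manganese and 4.52 in CRN in control medium. *HSP82* stood at percentile 94.9 in CRN in manganese, against 43.3 in CRN in control medium.

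The inducible genes have constitutive partners, which were measured from the same libraries. *HSC82*, the constitutive Hsp90 gene, had 640 and 734 normalized CPM in CRN/PPN1 in manganese, against 610 and 637 in control medium, and 417 and 475 in CRN in manganese, against 439 and 601 in CRN in control medium. Its log2 fold change in manganese was 0.14 in CRN/PPN1 (95% interval -0.30 to 0.58) and -0.22 in CRN (-0.66 to 0.22), neither called, while *HSP82* rose in both strains. *SSA1*, an Hsp70 gene that is expressed in growing cells and rises with stress, had 0.99 in CRN/PPN1 in manganese, just under the limit and past it in 7 of 17 alternatives (1.13 without replicate 1 of CRN/PPN1 in control medium, 1.12 without replicate 1 of CRN/PPN1 in manganese, 1.00 without either library of CRN in manganese), and rose by 2.48 in CRN (SE 0.21, edgeR adjusted p = 5.26e-08). It was 2.47-fold higher in CRN/PPN1 than in CRN in control medium (1.31, SE 0.20, edgeR adjusted p = 0.000581). *SSA2*, the constitutive Hsp70 gene, had a value of 0.36 in CRN/PPN1 (95% interval -0.08 to 0.80) and -0.11 in CRN (-0.54 to 0.33). Scaled to the library total, the values of *HSC82* and *SSA2* in CRN were 1.24 and 1.37, and both would be called up. Without replicate 2 of CRN in control medium, *HSC82* had 0.022.

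Other chaperone genes were called in both directions, and the shares to read their counts against are those of all genes in manganese. In CRN/PPN1 10.1% of all genes rose and 15.1% fell, and in CRN 24.7% rose and 24% fell. Of 21 genes of the cytosolic Hsp70 system, 1 rose and 1 fell in CRN/PPN1 in manganese, and 4 rose and 3 fell in CRN, with medians of 0.36 in CRN/PPN1 and 0.18 in CRN. The largest rises in CRN were those of the J-protein gene *APJ1* (2.83) and of *SSE2* (2.53), which encodes the stress-induced nucleotide exchange factor of Hsp70. Of 13 genes of the Hsp90 system, 2 rose and 1 fell in CRN/PPN1, and 1 rose and 2 fell in CRN. *STI1*, which bridges Hsp70 and Hsp90, rose in both, by 1.44 in CRN/PPN1 and 1.61 in CRN (1.03 in CRN with the length trend removed). Of 11 mitochondrial chaperone genes, 3 fell in CRN/PPN1, and 1 rose and 4 fell in CRN, where *MDJ1*, the partner of mitochondrial Hsp70, rose by 1.46 (0.98 and not called with the length trend removed) and *HSP10*, the lid of the chaperonin, fell by 4.31 on the log2 scale (-1.29 with the length trend removed). Of 14 genes of the cytosolic chaperonin and of prefoldin, which hands it unfolded actin and tubulin, 5 fell in CRN/PPN1 and 6 in CRN, led by the prefoldin genes *GIM4* and *GIM5* with -4.04 and -3.82 in CRN. With the length trend removed, 0 of the 14 fell in CRN/PPN1 and 3 in CRN, where *GIM4* had -1.09 and *GIM5* -1.77. Scaled to the library total, 7 of the 14 would be called up in CRN and 5 down, and of the Hsp70 list 11 of the 21 would be called up in CRN/PPN1 and 15 in CRN. With single libraries left out, the Hsp70 genes called down in CRN were 5 without replicate 1 of CRN in control medium, the Hsp90 genes called down there were 4 without replicate 2 of CRN in manganese, and the other counts of these lists in manganese moved by 2 at most.

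The genes of the activators themselves were also measured. *HSF1* had 161 and 106 normalized CPM in CRN/PPN1 in manganese, against 81.6 and 68.7 in control medium, and 272 and 210 in CRN in manganese, against 54.5 and 52.3 in control medium. Its value in CRN/PPN1 was 0.83, under the fold limit (1.10 and called without replicate 2 of CRN/PPN1 in manganese, 0.51 without replicate 1), and in CRN it rose by 2.17 (SE 0.24, edgeR adjusted p = 1.33e-06; 1.44 with the length trend removed), while the strain difference in control medium was 0.50 (95% interval -0.03 to 1.02). *MSN2* had 0.96 in CRN/PPN1, under the limit (1.40 and called without replicate 2 of CRN/PPN1 in manganese, 0.35 without replicate 1), and rose in CRN by 2.34 (SE 0.34, edgeR adjusted p = 2.02e-05), and in control medium the strain difference was 0.29 (95% interval -0.50 to 1.07). *MSN4* had 0.64 in CRN/PPN1 and 0.80 in CRN, neither called. Between the strains in manganese, *MSN2* was lower in CRN/PPN1 (log2 fold change -1.10, SE 0.30, edgeR adjusted p = 0.0105) and lost this call in 4 of 17 alternatives. *HSF1* had -0.85 there, under the fold limit (SE 0.22, edgeR adjusted p = 0.0084), and was called in 3 of 17. *BTN2*, which sorts misfolded proteins into deposits, had 67.6 and 37.2 normalized CPM in CRN/PPN1 in manganese, against 53.9 and 45.7 in control medium, and 294 and 281 in CRN in manganese, against 18.6 and 15.2 in control medium. It rose by 4.09 in CRN (SE 0.30, edgeR adjusted p = 1.17e-08) and was 2.96-fold higher in CRN/PPN1 than in CRN in control medium (1.56, SE 0.31, edgeR adjusted p = 0.0029). In manganese it was lower in CRN/PPN1 (log2 fold change -2.46, SE 0.25, edgeR adjusted p = 1.32e-05). Of the list of 6 regulators and sorting factors, 3 rose in CRN, where 24.7% of all genes did, and 5 did without replicate 2 of CRN in manganese. A single member, *MBF1*, named after its value was seen, was called down there, and in 8 of 17 alternatives it was not.

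A list of 15 general stress genes outside the chaperones, known as Msn2 and Msn4 targets, was also counted. Like the other lists, it was chosen after earlier results of these data were seen, so its counts only describe these genes. In manganese 8 of them rose in CRN/PPN1, where 10.1% of all genes did, and 11 in CRN, where 24.7% did, with medians of 1.15 in CRN/PPN1 and 2.72 in CRN. In CRN the largest rises were those of *XBP1*, a stress-induced repressor (5.05), and *DDR2*, a small stress protein (4.11, and 8.15 with the length trend removed, then above *XBP1*). In control medium 14 of the 15 were higher in CRN/PPN1 than in CRN, where 4.45% of all genes were, with a median of 1.87, led by *DDR2* (3.74) and *SOL4*, which encodes an enzyme of the pentose phosphate pathway (2.60). Of the Hsp70 list, 3 were higher and 1 lower in that comparison, against 4.45% of all genes in either direction. The gene closest to *HSP12* in its centred mean log2 level over the 4 groups was *ATO2*, at a Euclidean distance of 1.16, the least of any gene tested. *SSA4* had closer neighbours, *RTS3* (0.13), *GYP7* (0.27) and *SRX1* (0.27), and so had *HSP82* with *MGR1* (0.21), *FLC1* (0.21) and *PMC1* (0.25).

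**Figure D5:**
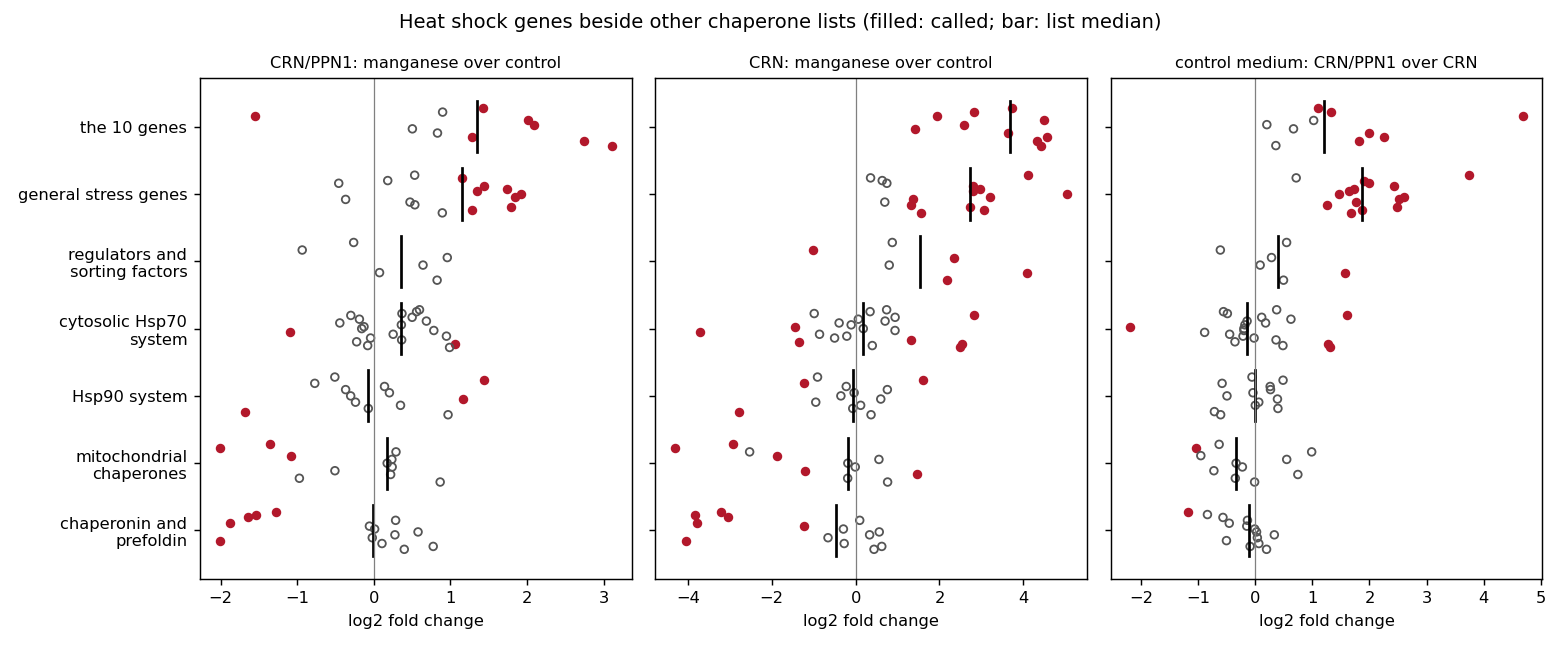
Points give the log2 fold change of each gene of a list in 3 comparisons, filled where the gene was called, with a bar at the median of the list. The medians of the 10 genes are 1.35, 3.68 and 1.21 and those of the general stress genes 1.15, 2.72 and 1.87, while those of the Hsp70, Hsp90, mitochondrial and chaperonin lists lie between -0.47 and 0.36. The regulators and sorting factors have medians of 0.36, 1.52 and 0.39.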

How the data were processed

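The authors used Trimmomatic 0.36 for trimming and STAR 2.5.3a for alignment and counting, on the R64 genome (sacCer3) and its Ensembl annotation. Multi-mapping reads were not counted. The deposited values are unnormalized counts per gene for each library. A series table with the same counts was checked to equal the opposite-strand column (57008 of 57008 values), which took 90.68% to 93.33% of stranded gene counts and were used here.

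Genes reaching 2 CPM in 4 or more libraries were kept (5778), scaled by TMM and fitted as 4 groups with edgeR 4.0.16 in R 4.3.3 (quasi-likelihood F test in its form before version 4, two-sided, no replicate block, Benjamini-Hochberg adjustment over all tested genes). The biological coefficient of variation was 0.18. Calls needed an adjusted p no larger than 0.05 and a log2 change of 1 or more in size. Standard errors came from the F statistic, and 95% intervals from these and the fit's degrees of freedom. Levels are TMM-normalized CPM.

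Alternatives were scaling to the library total, DESeq2 size factors, DESeq2 1.42.0, no filter, the later edgeR form, only the groups compared, a replicate block, counts on either strand, a lowess trend of counts on coding length (span 0.5; 5537 genes with a length) taken off each library, and each library left out. The code was tested on simulated data. Symbols, positions and upstream sequence came from RefSeq, R64. The 10 genes and the lists (83 genes, all matched) were chosen with earlier results of these data known. Outside the 10 genes, the text names close paralogs, activator genes and at most the 2 called genes of a list with the largest rise and fall, and for *HSP12*, *SSA4* and *HSP82* the nearest genes by group means of log2 CPM (prior count 2).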

Additional observations from a re-analysis of the deposited data

Results flagged for a closer look

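By the interaction test, the difference between manganese and control cultures varied with the strain for 9 of the 10 heat shock genes. The threshold was an edgeR adjusted p of at most 0.05 over all genes. The sign was negative, as for 13.1% of all 5778 genes at that threshold without a fold limit. Manganese cultures were harvested after 16 h in CRN/PPN1 and 40 h in CRN. Growth time can therefore not be told apart from strain and medium here. On the log2 scale, as the value in CRN/PPN1 minus that in CRN, *HSP12* had -3.51. The small heat shock protein genes had -1.58 for *HSP26* and -2.81 for *HSP42*. *HSP30* had -3.28, *HSP104* -1.93 and *HSP78* -0.92, the last under the limit of 1. The Hsp70 and Hsp90 genes had -1.32 for *SSA3*, -2.49 for *SSA4* and -2.29 for *HSP82*.

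Among the other genes named from the lists, the interaction passed with a negative sign for *SSA1* (-1.49), *SSE2* (-1.48), *APJ1* (-3.13), *MDJ1* (-1.24), *HSF1* (-1.35), *MSN2* (-1.39), *BTN2* (-4.02), *DDR2* (-3.58) and *XBP1* (-3.13), where 11.6% of all genes did. Of these, *MSN2* lost its call in 7 of 16 alternatives (-0.96 without replicate 2 of CRN/PPN1 in manganese, -1.15 without replicate 2 of CRN in control medium, -1.12 without replicate 1 of CRN/PPN1 in control medium, -1.42 and -1.36 without replicate 1 or 2 of CRN in manganese). *SSE2* lost it in 3 of 16 (-0.998 without replicate 2 of CRN in control medium, -1.06 without replicate 2 of CRN/PPN1 in control medium, -1.12 with the length trend removed). With the length trend removed *HSF1* (-0.95) and *MDJ1* (-0.99) lost it as well, and *DDR2* had -5.58. It passed with a positive sign for *HSP10* (2.29), *GIM4* (2.02) and *GIM5* (2.29), which fell in both strains. Over all 5778 genes, 866 passed with that sign. With the length trend removed, the falls in CRN/PPN1 were no longer called (-0.51 for *HSP10*, -0.56 for *GIM4*, -0.53 for *GIM5*), and the interaction of *HSP10* was 0.78 and not called. *GIM4* then had -1.09 in CRN, less than 1 away from its value in CRN/PPN1, so its interaction was under the fold limit too. For *GIM5*, with -1.77 in CRN, the distance stayed above 1. In the main fit, the interaction did not pass for *STI1* (-0.17), *SOL4* (-1.35), *MSN4* (-0.16), *MBF1* (0.068), *SSA2* (0.465) or *HSC82* (0.362). *APJ1*, *SSE2*, *MDJ1*, *BTN2*, *DDR2* and *XBP1* were named for a large rise in CRN in manganese, and *HSP10*, *GIM4* and *GIM5* for a large fall. The interaction subtracts this value of CRN, so their signs follow in part from how they were named.

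The counts on the other strand were not used in the comparisons. At *HSP31* they were 11 and 22 in CRN in manganese (mean 16.5), against 3 and 3 in control medium, and 0 and 27 in CRN/PPN1 in manganese, against 2 and 9 in control medium. The gene's own counts were 935 and 1205 in CRN in manganese.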

How the results depend on the processing

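Over all alternatives, the log2 fold changes of the 10 genes kept their direction and call in 804 cases, lost the call in 16, gained it in 17 and changed sign in 3. In the number of the 10 genes called, all 10 stayed up in CRN in manganese except with the length trend removed (9). The single down call in CRN/PPN1 (*HSP12*) was 0 both when scaled to library totals and without the length trend, as was the single up call against CRN in manganese, which ran from 0 to 1 with a library left out. Scaled to the library total, 5 of the 10 genes were lower in CRN/PPN1 in manganese. Signs changed for *HSP26* between the strains in manganese (-0.069 scaled to the library total, -0.044 with the length trend removed), for *HSP78* there (0.029 with the length trend removed) and for *HSC82* in CRN/PPN1 in manganese (-0.165 with the length trend removed). In CRN, *SSA2* (1.37) and *HSC82* (1.24) changed sign with scaling to the library total, and *HSC82* without replicate 2 of CRN in control medium (0.022); without its replicate 1 *HSC82* had -0.431. None of these values was called before, and the cause was not tested.

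Counts over all genes moved with scaling to the library total to 1870 up and 404 down in CRN/PPN1 in manganese (582 and 870 with TMM), 3681 and 609 in CRN in manganese (1426 and 1389), 913 and 37 between the strains in control medium (257 and 257), 392 and 878 between them in manganese (599 and 426), and 366 and 2149 for the interaction (866 and 672). With the length trend removed, 315 genes were down in CRN/PPN1 in manganese, 70 were down between the strains in control medium, 298 were up between them in manganese, and 559 had a positive interaction. Leaving out libraries gave from 147 to 324 genes up and from 105 to 340 down between the strains in control medium, with 147 and 105 without replicate 2 of CRN/PPN1 in control medium and 145 down without replicate 1 of CRN in control medium.

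With a replicate block, counts of the 10 genes were the same except 7 in place of 6 up between the strains in control medium, through *SSA4* (1.03 on the log2 scale, with 283 genes up in all). The replicates came from parallel cultivations, but no source ties a number to one of them. Deviations of same-numbered libraries from group means correlated positively across genes, between 0.036 and 0.217, in 5 of 6 pairs of groups above 0.1, so a pairing was neither established nor excluded and the fit without the block was kept. Depth limits *SSA4* most, whose CRN control libraries held 20 and 9 counts.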
